A study of Bos taurus with 64 samples.

Results

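The effect of pre-slaughter stress in the M. semitendinosus (ST) of cows on the lipid-rich control diet was described from 16 of the 64 arrays of the series. The arrays were chosen by their labels alone, as those of the Semitendinosus with the supplement diet Lipid-rich. They comprised 8 stressed cows, whose label is Moderated stress, and 8 cows handled with limited stress, with 1 array per cow. All were Normand cows, with an age of 4.5 years at slaughter per the labels, finished over 101 d on straw and concentrate with 40 g of lipids/kg DM from linseed and rapeseed. The stressed cows were isolated from other cows in a lorry and then spent 30 min in a labyrinth on a farm that they did not know. The ST of another 16 cows, fed the same ration with vitamin E and plant extracts (EP diet), and the M. longissimus thoracis (LT) of the same 16 control diet cows served for comparison. Muscles were excised within 15 min after slaughter, so each cow gave 1 time point, and no array was taken before the stress. Whole muscle was sampled, so fewer cells of a type and less RNA per cell cannot be told apart.

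The ST is a hind limb muscle with many fast glycolytic fibres. Muscle under stress receives adrenaline and cortisol from the blood, and its own contraction adds calcium and metabolic signals. These act first on genes for transcription factors that answer within minutes (ATF3, FOS, ETS2) and on genes that turn the fibre from glucose to fatty acids, of which PDK4 is the best known because it shuts pyruvate dehydrogenase. The myogenic regulatory factors (MYOG, MYOD1, MYF5, MYF6) and the growth inhibitor myostatin (MSTN) set the identity and the size of the fibre.

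The level of a transcript is given as the log2 of its signal over the 75th percentile of the array, averaged over its tested probes. A level of 0 is therefore that percentile, and a difference of 1 is 2-fold. Levels of different probes were not compared. A transcript was called higher or lower in stressed cows when a share of 80% or more of the tested probes passed a limma adjusted p of 0.1 in 1 direction, and for a transcript with several probes the largest adjusted p is printed. The 75th percentile itself lay between 2684 and 3805 units over the 16 arrays, and 72.8% to 79.7% of the spots were well above background. Its log2 was higher by 0.139 in the stressed cows of the ST (exact permutation test, two-sided p = 0.0911), and the share of spots well above background differed by less than the spread between cows (exact permutation test, p = 0.666).

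The slide and the stress group were largely the same division of the cows. Cows are named by their labels. Limited stress cows alone lay on slide 1 (cow255 and cow259), slide 2 (cow270 and cow282) and slide 4 (cow316 and cow320), and stressed cows alone lay on slide 5 (cow260, cow265, cow268, cow311 and cow321). Only slide 3 held control diet cows of both groups, the stressed cow297, cow301 and cow305 and the limited stress cow302 and cow308. Outside slide 3, slide and stress cannot be told apart among these 16 cows. A model with the slide as a fixed block draws on the EP diet cows on the same slides, and its values are given beside the leading results. Slide 5 held only 1 limited stress and 1 stressed cow of the EP diet, so the block has few such arrays to draw on there. Slides 1 and 2 shared a scan day, as did slides 3 and 4, and slide 5 was scanned on a day of its own. The array of cow321 stood apart. Its median correlation with the other arrays was 0.965, against at least 0.980 for each of the others, and the cow lay far from the other 7 stressed cows for 395 transcripts, or 9.40% of those tested. Values without cow321 are therefore also given.

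In the ST of the control diet cows, 108 of 4223 tested transcripts were called (2.56%). Stressed cows had higher levels of 39 of them (0.924%) and lower levels of 69 (1.63%) than cows handled with limited stress. They included 59 of 1959 tested genes with a name (3.01%), 21 higher (1.07%) and 38 lower (1.94%). The higher transcripts changed more, with a median log2 fold change of 0.97 (range 0.44 to 4.14), and the lower ones had a median of -0.52 (range -1.26 to -0.18). The median over all tested transcripts was -0.07. PDK4, the transcription factor CEBPD, the stress sensor GADD45A and the monocarboxylate carrier SLC16A6 led the higher side, and MYOG, MSTN, FST and a group of dim transcripts stood on the lower side. Only 13 transcripts (0.308%) had no overlap between the 8 stressed and the 8 limited stress cows, and 9 of the called higher and 2 of the called lower transcripts were among them. The split between higher and lower depended on the scaling. Quantile normalization gave 41 calls, 34 higher and 7 lower, and the median of the control features gave 9 calls, all of them higher. The median log2 fold change of all probes was -0.07 with the 75th percentile and 0.06 without scaling, and the changes below stand relative to that shift.

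**Figure D1:**
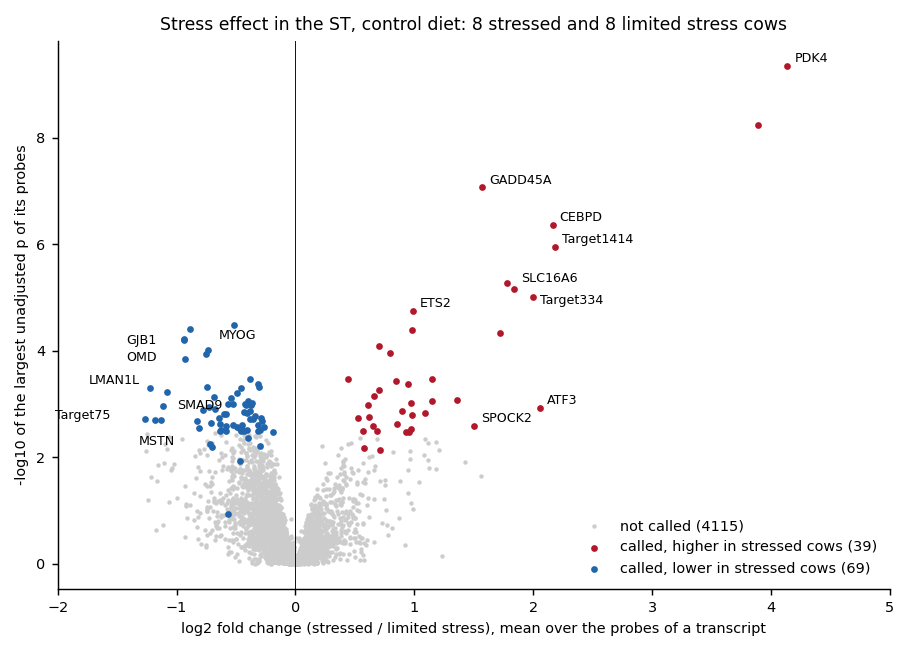
Log2 fold change (stressed over limited stress) of the 4223 transcripts tested in the ST of control diet cows, against -log10 of the largest unadjusted p of the probes of the transcript. The 39 called higher (red) reach a log2 fold change of 4.14 for PDK4, and the 69 called lower (blue) lie between -1.26 and -0.18.

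The count also depended on single cows. It ranged from 35 to 163 when 1 cow was left out. It was 35 without cow255, 37 without cow270, 53 without cow308 and 42 without cow316 among the limited stress cows. It was 58 without cow301, 64 without cow305, 37 without cow321 and 163 without cow311 among the stressed cows. The 24 called transcripts that kept their call in all 16 of these fits were 16 higher and 8 lower ones. On the higher side these were the 2 probe sets each of PDK4, CEBPD, SLC16A6 and ETS2, with GADD45A, HYAL2 and 6 sets without a name (Target1414, Target334, Target1296, Target894, ENSBTAT00000029562 and A_73_101600). On the lower side they were the 2 sets of MYOG, with CTRC, GPC2, LOC532114, HEATR5B, GJB1 and OMD. Of these, OMD, GJB1 and HEATR5B were well above background on fewer stressed than limited stress arrays. They passed the filter on dim probes mainly through the limited stress cows, so their kept calls are no further support. All 16 fits also keep the overlap of slide and stress group, so a kept call says nothing about the slide. Cow321 was the highest stressed cow for 28 of the 39 transcripts called higher and the lowest for 30 of the 69 called lower.

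The array named many of its transcripts through custom probe sets of up to 5 probes, so the sequences of the leading sets are shown here. The first group is the sets named by bases in a row that they share with the probe of a named gene, and the capitals mark these shared bases within the stretch of 30 bases shown. The sets PDK4, SLC16A6, ETS2 and MYOG were chosen because each is a further set for its gene. Of the 60 bases of the probe shown, 59, 37, 45 and 52 were shared with a named probe. Both sets of such a gene are therefore not separate results.
PDK4 (Target1250): CCAGAAATTTCTGATTGTCCTTTGCTTTCT
SLC16A6 (Target1545): GACTTTCTGGAGATGGACCTGGGGAAGACC
ETS2 (Target611): CAAGAGTCATGGAAAATCAAATCCATGGTA
MYOG (Target1111): CTCCTGGGGTGATTAATTTTGTTAACTAAG
FST (Target683): ATTCTAGAGTGGTAAACCCTCCACCAatgt

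The second group is the sets that shared no such stretch with a named probe and stayed without a name. They are shown because they had the largest changes among the unnamed sets, or because of their likeness to a named set. The capitals in Target334 mark bases of a qPCR primer.
Target1414: gtggtttaaatgtggtgtgtctcaagctgg
Target334: taaataaagtcGTTGCCTTTCCCCCATGAG
Target1490: cttttcctctggccatgttgggagtgagca
Target75: attgcattccctgggctaacatcaacttgt
Target1828: ctagagtggtaaactctccaccaatgttca
The stretch of Target1828 equalled that of the FST set Target683 at 26 of the 27 bases where the 2 overlap without a gap. It was the only pair over 80% equal among 361 pairs of stretches compared. A probe of Target334 held all 20 bases of the forward primer that the study designed for CEBPD, the only 1 of its 16 primers found whole in a probe, and 19 of these bases are in the stretch shown.

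The largest change was that of a gene of fuel use. PDK4, the kinase that switches off pyruvate dehydrogenase and spares glucose, had levels of -0.13 to 3.17 (median 0.80) in the 8 stressed cows and of -4.57 to -1.74 (median -2.93) in the 8 limited stress cows. Each stressed cow lay above every limited stress cow. PDK4 was higher by 4.14 ± 0.46 on the log2 scale (SE, adjusted p = 1.7e-06), a 17.6-fold change, and 3.89 in the custom set with the sequence above. It was 3.85 without cow321 (adjusted p = 5.1e-06) and 4.13 with the slide as a block (adjusted p = 0.0011). The PDK4 probe was placed by the array design on chr4:13136666-13136725 of Btau_3.1.

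SLC16A6, a carrier of the monocarboxylate family, had levels of -3.22 to -1.15 (median -1.48) in stressed and of -4.78 to -2.36 (median -3.88) in limited stress cows. In 6 of the 8 stressed cows it lay above all limited stress cows, and the log2 fold change was 1.84 ± 0.34 (SE, adjusted p = 0.0034), and 1.96 with the slide as a block (adjusted p = 0.072). PFKFB3, which makes the activator of phosphofructokinase, had levels of 3.99 to 5.21 (median 4.60) against 3.34 to 4.43 (median 3.63), with 5 stressed cows above all others. Its log2 fold change was 0.85 ± 0.26 (SE, adjusted p = 0.089), and the call was lost without any of 9 cows (cow255, cow260, cow270, cow282, cow297, cow302, cow308, cow320 and cow321; 0.76 to 0.95 over the 16 fits) and with the slide as a block (0.94, adjusted p = 0.33). SLC2A8, a glucose transporter of internal membranes, was higher by 0.62 (adjusted p = 0.083) and by 0.44 without cow321 (adjusted p = 0.15), whose level of 0.168 was the highest of all 16. Its call was also lost without any of cow255, cow265, cow270, cow297, cow308, cow316 and cow320, and with the slide as a block (0.64, adjusted p = 0.35). These 4 genes were the called members of the 23 tested genes for the switch of fuel, none of which was called lower. Of all 1959 named genes tested, 59 were called. The median log2 fold change of the 23 was 0.10, against -0.07 for all named genes. The other pyruvate dehydrogenase kinases had log2 fold changes of -0.32 (PDK1), 0.04 (PDK2) and -0.08 (PDK3), the muscle fatty acid entry enzyme CPT1B of 0.38 and the insulin-dependent glucose transporter SLC2A4 of 0.05, without a call.

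CEBPD, a transcription factor that cortisol and cytokines induce, was measured by 2 probes. The probe under its name had levels of -3.87 to -1.08 (median -3.24) in stressed and of -5.18 to -4.32 (median -4.74) in limited stress cows, so the groups did not overlap. It was higher by 1.78 ± 0.32 (SE, adjusted p = 0.0028), and by 1.85 with the slide as a block (adjusted p = 0.082). The second probe, TC310369, carried the name only in its description and was 2.16 higher (adjusted p = 0.00039), also without overlap. The mean log2 fold change of the 2 probes was 1.97, and 1.69 without cow321. The array design placed the first at chr14:18786077-18786136 and the second at chr10:46754384-46754443, so the 2 probes were placed at different loci. Target334, the set with the CEBPD primer in its sequence, also separated the groups, with -0.59 to 2.34 in stressed and -2.06 to -1.42 in limited stress cows. It was higher by 2.00 ± 0.35 (SE, adjusted p = 0.0043), and by 1.98 with the slide as a block (adjusted p = 0.19). It is therefore no result apart from CEBPD, although the naming rule left it without a name. PDK4 and CEBPD were the 2 called among 6 tested genes of the glucocorticoid response, of 31 listed. All 6 lay above 0, as did 674 of the 1959 named genes tested, of which 59 were called. The metallothionein MT2A had a log2 fold change of 0.66, the phosphatase DUSP1 of 0.43 and the kinase inhibitor ERRFI1 of 0.32, and none of the 3 was called. The cell cycle inhibitor CDKN1A, also on this list, had 0.50 as the mean of its 2 transcripts, and -0.11 without cow321. The median of the 6 was 0.58, and 0.34 without cow321.

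Among the immediate early genes, 3 of 10 tested were called, all higher, beside 59 of all 1959 named genes tested. This list, too, was chosen with earlier results of these data known. The median over the 10 was 0.63. ATF3, a stress-induced repressor of transcription, spread widely, from -0.37 to 3.43 (median 1.65) in stressed and from -2.68 to 2.29 (median -0.32) in limited stress cows. The groups overlapped, since only 3 stressed cows lay above the highest limited stress cow, cow316. Its log2 fold change was 2.06 ± 0.58 (SE, adjusted p = 0.071). The call was lost without any of cow255, cow260, cow270, cow301, cow305, cow308 and cow321, with values from 1.73 to 2.44, and with the slide as a block (2.59, adjusted p = 0.22). ETS2, a transcription factor of the RAS and MAPK pathway, varied much less. It ranged from 0.14 to 1.28 (median 0.37) in stressed and from -1.35 to 0.13 (median -0.55) in limited stress cows, without overlap. ETS2 was higher by 0.99 ± 0.19 (SE, adjusted p = 0.006), 0.98 in the custom set, and 1.17 with the slide as a block (adjusted p = 0.048). The mean of its 2 sets was 0.98, and 0.87 without cow321. IFRD1, a co-regulator of transcription in muscle regeneration, had levels of 0.97 to 2.49 (median 1.42) against -0.32 to 1.39 (median 0.50), with 4 stressed cows above all limited stress cows. It was higher by 0.95 ± 0.24 (SE, adjusted p = 0.05), and the call was lost without cow270 and without cow321 (0.81, adjusted p = 0.11), and with the slide as a block (1.12, adjusted p = 0.23).

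FOS, the founding member of AP-1, ranged from -0.67 to 2.62 in stressed and from -1.29 to 2.72 in limited stress cows and was not called (log2 fold change 0.97 ± 0.53, adjusted p = 0.34). Its partners FOSL1, JUN and JUNB had values of 0.70, 0.30 and -0.06, the zinc finger factor EGR1 of 0.25 and the small GTPase GEM of 0.57, and none was called. In the EP diet cows FOS had a log2 fold change of 2.25 (adjusted p = 0.029), but the difference between the diets did not pass its own test (unadjusted p = 0.098).

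GADD45A, which stops the cell cycle and acts in DNA repair, separated the groups. Its levels were 0.50 to 2.68 (median 1.12) in stressed and -0.77 to 0.35 (median -0.38) in limited stress cows. All 8 stressed cows lay above all 8 limited stress cows. GADD45A was higher by 1.57 ± 0.22 (SE, adjusted p = 9.8e-05), 1.36 without cow321 (adjusted p = 4.2e-05) and 1.47 with the slide as a block (adjusted p = 0.033). It was the only called gene of 6 tested for growth arrest, beside 59 of all 1959 named genes tested (3.01%). The median of these 6 was 0.49 with all cows, 0.12 without cow321, 0.20 within slide 3 and 0.09 in the EP diet cows. BTG1 (0.64) and GADD45B (0.49) had values on the same side without a call. CDKN1A, the p21 inhibitor of cell division, had a log2 fold change of 0.46 with all cows and of -0.12 without cow321. That cow had a level of 4.45, against at most 0.828 in the other stressed cows.

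**Figure D2:**
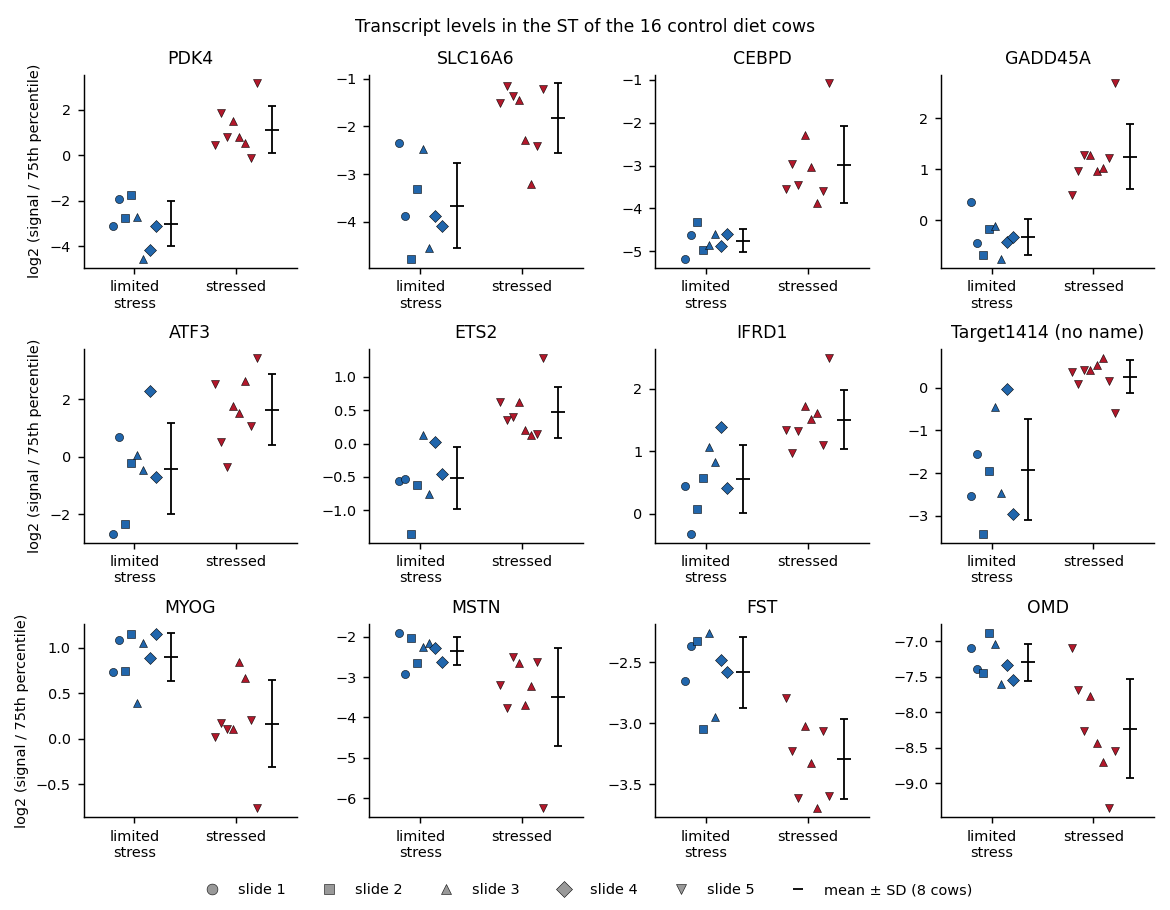
Level (log2 of signal over the 75th percentile of the array) of 12 transcripts in the 8 limited stress cows (blue) and the 8 stressed cows (red) of the control diet, 1 point per cow with the slide as its shape, and the mean ± SD of each group. PDK4, CEBPD, GADD45A and ETS2 show no overlap between the groups. Cow321 on slide 5 is the highest stressed cow for PDK4, CEBPD, GADD45A, ATF3, ETS2 and IFRD1, and the lowest for Target1414 and MSTN.

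Further called genes were spread over several functions. HES6, a brain and muscle member of the HES family that opposes HES1, was higher by 1.36 ± 0.37 (SE, adjusted p = 0.064). It ranged from -7.54 to -4.02 in stressed and from -7.70 to -5.82 in limited stress cows, so it was dim, and its call was lost without any of cow255, cow260, cow270, cow308 and cow321 (1.18 to 1.68), and with the slide as a block (1.04, adjusted p = 0.42). It was the 1 called gene of 8 tested in the Notch list, beside 59 of all 1959 named genes tested (3.01%). In that list HEYL had 0.58, NOTCH4 0.46 and HES1 -0.08. SPOCK2, a secreted proteoglycan that binds calcium, was higher by 1.50 ± 0.46 (SE, adjusted p = 0.092). Its levels were -3.69 to 0.10 (median -1.43) in stressed and -3.80 to -1.82 (median -3.18) in limited stress cows, and 6 stressed cows lay above all limited stress cows. The call held in only 4 of the 16 fits that left out 1 cow (without cow268, cow301, cow302 or cow311) and was lost in the other 12 (1.27 to 1.81), it was lost with the slide as a block (1.41, adjusted p = 0.38), and its custom set was not called (1.43, adjusted p = 0.16). HYAL2, which cleaves hyaluronan at the cell surface, moved less. It ranged from -0.94 to -0.16 in stressed and from -1.12 to -0.80 in limited stress cows and was higher by 0.44 ± 0.11 (SE, adjusted p = 0.045). Its call was kept in all 16 fits that left out 1 cow and lost with the slide as a block (0.48, adjusted p = 0.27).

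SPOCK2 and HYAL2 were called higher and TIMP2 and MMP9 lower among 18 tested genes of the extracellular matrix. Of all 1959 named genes tested, 21 were called higher and 38 lower. The median of the 18 was 0.05, but -0.02 without cow321, -0.21 with the slide as a block and -0.30 within slide 3. TIMP2, an inhibitor of matrix metalloproteinases, ranged from 0.79 to 1.64 in stressed and from 1.52 to 1.79 in limited stress cows, with 6 stressed cows below all limited stress cows. It was lower by 0.38 on the log2 scale (log2 fold change -0.38 ± 0.11, SE, adjusted p = 0.075), and the call was lost without any of cow255, cow270, cow301, cow302, cow305, cow308, cow316 and cow321 (-0.44 to -0.32), and with the slide as a block (-0.40, adjusted p = 0.33). The 2 transcripts of MMP9, a gelatinase, disagreed on the call. The set named by 48 shared bases, Target1061, had a log2 fold change of -0.31 (adjusted p = 0.052; 0.11 without cow321), and the probe under its own name of -0.16 (adjusted p = 0.46). The proteases ADAMTS4 (0.71) and ADAMTS1 (0.50) and fibronectin FN1 (-0.53) were not called.

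GABARAPL1, an ATG8 family protein of autophagosomes, was the 1 called gene of 9 tested for protein breakdown, beside 59 of all 1959 named genes tested (3.01%). It ranged from 1.32 to 4.40 in stressed and from 0.62 to 1.57 in limited stress cows, and 7 stressed cows lay above all others. GABARAPL1 was higher by 0.98 ± 0.27 (SE, adjusted p = 0.069), and 0.64 without cow321 (adjusted p = 0.033), whose level of 4.40 was far above the next at 2.18. The call was lost without any of cow255, cow270, cow308 and cow316 (0.64 to 1.09), and with the slide as a block (0.92, adjusted p = 0.38). The calpains CAPN1 (-0.15), CAPN2 (-0.19) and CAPN3 (-0.28), their inhibitor CAST (-0.24) and the proteasome subunit PSMA1 (0.13) were not called.

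Among 18 tested heat shock genes and chaperones, the co-chaperones DNAJB1 and DNAJA1 were called, both higher, beside 59 of all 1959 named genes tested (3.01%). Of the 18, 15 lay above 0, beside 674 of all 1959 named genes tested. DNAJB1, the partner of HSP70 in stress, had levels of -2.79 to -1.66 in stressed and of -3.55 to -2.36 in limited stress cows, with 6 stressed cows above all others. It was higher by 0.66 ± 0.18 (SE, adjusted p = 0.06), and the call was lost without any of cow255, cow270 and cow321 (0.56 to 0.75), and with the slide as a block (0.72, adjusted p = 0.31). Its custom set had the same size of change without a call (0.66, adjusted p = 0.18). DNAJA1 was called by 2 of its 3 transcripts, with log2 fold changes of 0.55 to 0.61. The HSP70 genes HSPA1A (0.29) and HSPA8 (0.11), the HSP110 gene HSPH1 (0.50) and the small heat shock gene HSPB1 (0.40) were not called. The median of the list was 0.10 here and 0.35 within slide 3.

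PGF, an angiogenic growth factor related to VEGF, was higher by 0.70 ± 0.18 (SE, adjusted p = 0.053). PGF was the 1 called gene of 8 tested for hypoxia and angiogenesis, beside 59 of all 1959 named genes tested (3.01%). Its levels were -3.26 to -2.29 in stressed and -3.92 to -3.01 in limited stress cows, and its call was lost without any of cow270, cow308 and cow321 (0.63 to 0.78), and with the slide as a block (0.53, adjusted p = 0.40). The anti-angiogenic THBS1 (0.96), VEGFA (0.10) and HIF1A (0.12) were not called. ABRA, a striated muscle protein that activates serum response factor, had levels of 0.70 to 2.68 in stressed and of 0.35 to 1.21 in limited stress cows. It was higher by 0.65 ± 0.20 (SE, adjusted p = 0.092), and the call held only in the fits without cow259, cow260, cow265 or cow311 (0.49 to 0.77 over the 16 fits) and was lost with the slide as a block (0.60, adjusted p = 0.42). ZNF750, a zinc finger regulator known from the epidermis, had levels of -2.74 to -0.62 in stressed and of -3.58 to -0.99 in limited stress cows. It was higher by 1.09 ± 0.31 (SE, adjusted p = 0.078) and by 1.30 without cow321 (adjusted p = 0.026), and the call held in 7 of the 16 fits. The 9 cows whose absence ended it were cow255, cow265, cow270, cow297, cow301, cow302, cow305, cow308 and cow316 (0.92 to 1.30), and the slide as a block ended it too (1.41, adjusted p = 0.24). The nuclear receptor coactivator PNRC1 (0.53, adjusted p = 0.084) and tissue-nonspecific alkaline phosphatase ALPL (0.97, adjusted p = 0.097) were also called. They were named after their values were seen.

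Of the 39 transcripts called higher, 11 had no name. Target1414 was the largest of these, with 5 probes between 2.14 and 2.22. Its levels were -0.58 to 0.70 (median 0.39) in stressed and -3.42 to -0.02 (median -2.20) in limited stress cows. The stressed cows were close together, except cow321 at -0.58, while the limited stress cows spread over more than 3 units. The log2 fold change was 2.18 ± 0.35 (SE, adjusted p = 0.00064), 2.30 without cow321 and 2.39 with the slide as a block (adjusted p = 0.0086). Target1490 separated the groups by little, with -1.83 to 1.60 against -2.35 to -1.83. Its log2 fold change was 1.15 with all cows and 0.78 without cow321, and its call was lost without cow255 and without cow270, and with the slide as a block (0.99, adjusted p = 0.41). Target334, Target1490 and the other unnamed sets apart from Target1414 and Target75 were named after their values were seen.

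On the lower side, myogenic and growth genes were the named ones of known muscle function. MYOG, the myogenic factor that drives myoblast differentiation and rises in denervated fibres, had levels of -0.77 to 0.85 (median 0.13) in stressed and of 0.39 to 1.15 (median 0.96) in limited stress cows. In 6 stressed cows it lay below all limited stress cows, while cow301 and cow305 on slide 3 were within their range. The log2 fold change was -0.73 ± 0.16 (SE, adjusted p = 0.018), and -0.75 in the custom set. It was -0.60 without cow321 (adjusted p = 0.034). With the slide as a block it was -0.50 (adjusted p = 0.36), and within slide 3 the difference was -0.18.

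MYOD1, the factor that commits cells to muscle, had levels of -1.37 to 2.58 (median 1.86) in stressed and of 1.89 to 2.81 (median 2.29) in limited stress cows. The level of cow321, -1.37, was far below the next stressed cow at 1.53. MYOD1 was not called (log2 fold change -0.76 ± 0.34, adjusted p = 0.24; -0.34 without cow321). MYF6, the factor of mature fibres, had levels of 0.67 to 3.25 against 1.33 to 1.77 and a log2 fold change of 0.16 (adjusted p = 0.75). Its stressed cows lay both above and below the limited stress cows, 3 on each side. MYF5, the early factor of satellite cells, had a log2 fold change of -0.66 without a call.

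MSTN, the secreted inhibitor of muscle growth, had levels of -6.25 to -2.51 (median -3.21) in stressed and of -2.93 to -1.91 (median -2.27) in limited stress cows, and 5 stressed cows lay below all limited stress cows. The log2 fold change was -1.14 ± 0.34 (SE, adjusted p = 0.087) and -1.18 in its second transcript. Without cow321, at -6.25, it was -0.74 (adjusted p = 0.11). The call was also lost without any of cow255, cow265, cow270, cow301, cow302, cow305, cow308 and cow316, and with the slide as a block (-1.05, adjusted p = 0.41). FST, which binds and blocks myostatin and activins, was lower too. Its levels were -3.70 to -2.79 (median -3.28) in stressed and -3.05 to -2.26 (median -2.53) in limited stress cows, with 6 stressed cows below all others. The log2 fold change was -0.71 ± 0.21 (SE, adjusted p = 0.088), -0.67 without cow321 (adjusted p = 0.17) and -0.80 with the slide as a block (adjusted p = 0.31). The call held in 6 of the 16 fits (without cow259, cow260, cow265, cow282, cow297 or cow311; -0.78 to -0.65 over all 16).

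The FST region was measured by more than 1 transcript. TC313213, without a name, was placed at chr20:27296287-27296346 on the minus strand, and the FST probe at chr20:27297177-27297236 on the same strand of Btau_3.1. Its log2 fold change was -0.78 ± 0.22 (SE, adjusted p = 0.072), and its levels were -4.26 to -3.28 in stressed and -3.73 to -2.80 in limited stress cows. Target1828, the set whose sequence is shown beside that of FST, had -0.83 ± 0.23 (SE, adjusted p = 0.088), with -6.16 to -5.23 against -5.40 to -4.58. All 4 transcripts lay between -0.83 and -0.71. Since the stretches of Target1828 and of the FST set are nearly equal, these 2 sets are not separate results. TC313213 and Target1828 were singled out after their values were seen.

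LRP4, the receptor of agrin at the neuromuscular junction, was the 1 gene called higher among the 19 tested myogenic and junction genes, beside MYOG, MSTN and FST called lower. It had levels of -4.86 to -3.30 in stressed and of -5.56 to -4.09 in limited stress cows and was higher by 0.89 ± 0.25 (SE, adjusted p = 0.075). Its probe, TC378976, carried the name only in its description, and its call was lost without any of cow255, cow260, cow270, cow301, cow302, cow308, cow316 and cow320 (0.79 to 1.01), and with the slide as a block (0.84, adjusted p = 0.38). The acetylcholine receptor subunit CHRNE had 1.19 and the kinase MUSK, the partner of LRP4, 0.48, without a call. The subunits CHRNA1 (0.12), CHRNB1 (-0.09) and CHRND (0.01) lay near 0. The median of the 19 genes was -0.06. Of all 1959 named genes tested, 21 were called higher and 38 lower.

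SMAD9, a transducer of BMP signals, had levels of -7.13 to -4.14 (median -5.72) in stressed and of -5.26 to -3.88 (median -4.50) in limited stress cows. Its log2 fold change was -1.11 ± 0.31 (SE, adjusted p = 0.069), -0.91 without cow321 (adjusted p = 0.15) and -1.55 with the slide as a block (adjusted p = 0.17). The call was also lost without any of cow255, cow301, cow305, cow308 and cow316. FZD1, a Wnt receptor, had a log2 fold change of -0.64 (adjusted p = 0.085), with levels of -5.89 to -5.09 against -5.30 to -4.01 and 5 stressed cows below all others. Its call held in 6 of the 16 fits (without cow259, cow260, cow282, cow297, cow308 or cow311; -0.72 to -0.53). GPC2, a heparan sulfate proteoglycan of the cell surface, and a custom set of EBP, a sterol isomerase, were the 2 called lower transcripts whose groups did not overlap. GPC2 fell by 0.52 on the log2 scale (adjusted p = 0.0099), and EBP by 0.46 in that set (adjusted p = 0.098) and by 0.52 in the probe under its name (adjusted p = 0.069). GPC2, EBP and CTRC were named after their values were seen.

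Some of the lower side was dim. Of the 69 transcripts called lower, 15 were well above background on fewer than all 8 arrays of a group, against 1 of the 39 called higher. With the test limited to probes well above background on all 16 arrays, 102 of 3815 transcripts were called, 39 higher and 63 lower, and 53 of the 69 were among the lower ones. OMD, a keratan sulfate proteoglycan of bone, had levels of -9.36 to -7.10 (median -8.35) in stressed and of -7.61 to -6.88 (median -7.37) in limited stress cows. Its probe stood well above background on 2 of the 8 stressed and 6 of the 8 limited stress arrays, and the log2 fold change was -0.94 ± 0.20 (SE, adjusted p = 0.014). GJB1, the gap junction protein connexin 32, had -8.85 to -7.35 against -7.43 to -6.81, with 2 and 8 arrays well above background, and a log2 fold change of -0.94 (adjusted p = 0.014). With the slide as a block it was -0.27 (adjusted p = 0.55). HEATR5B, a protein of vesicle traffic, had -8.72 to -6.84 against -7.06 to -6.16, with 4 and 8 arrays, and -0.93 (adjusted p = 0.024; -0.98 with the slide as a block).

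The cargo receptor relative LMAN1L had levels of -9.78 to -7.31 in stressed and -8.65 to -6.76 in limited stress cows, with 2 and 5 arrays well above background. Its log2 fold change was -1.23 (adjusted p = 0.052), and -0.56 with the slide as a block (adjusted p = 0.55). The call was lost without cow255 and without cow321 (-1.10). SNAP25, a SNARE protein of nerve endings, had -0.74 (adjusted p = 0.052; lost without cow255 and without cow316), TTBK2, a tau tubulin kinase, -0.81 (adjusted p = 0.093) and DRP2, a dystrophin relative of Schwann cells, -0.68 (adjusted p = 0.06). DRP2 lost its call without any of cow255, cow270, cow301, cow316 and cow321, and TTBK2 without 10 of the 16 cows (cow255, cow260, cow270, cow301, cow302, cow305, cow308, cow311, cow316 and cow321). Target75, a set without a name and with 1 probe, had -1.26 ± 0.37 (SE, adjusted p = 0.086) and was well above background on 4 and 7 arrays, and it lost its call without any of cow255, cow282, cow301, cow302, cow305, cow316, cow320 and cow321. LOC532114, described as similar to a serotonin receptor, had -8.56 to -7.31 against -7.32 to -6.49 and a log2 fold change of -0.88 (adjusted p = 0.011), but -0.28 with the slide as a block (adjusted p = 0.5). All of these transcripts except HEATR5B and Target75 had log2 fold changes nearer 0 with the slide in the model.

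Several lists of central muscle genes held no call. Of 15 tested genes of glycogen and glycolysis none was called, and their median was -0.11. The glycogen phosphorylase PYGM had levels of 4.93 to 5.26 in stressed and of 5.13 to 5.61 in limited stress cows (log2 fold change -0.25, adjusted p = 0.2). PPP1R3C, which brings phosphatase to glycogen, had -0.46 (adjusted p = 0.21; -0.29 without cow321). No call was found among the 8 slow fibre genes (median -0.03, and 0.48 within slide 3; MYL3 0.23), the 9 fast fibre genes (median -0.10, and 0.10 within slide 3; MYH1 -0.12), the 8 inflammation genes (median -0.35) or the 5 genes of ribosome biogenesis (median 0.06). Of the inflammation genes, the endotoxin receptor TLR4 had -0.48, the chemokine receptor CXCR6 -0.63 and the myeloid receptor TREM1 -0.27.

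**Figure D3:**
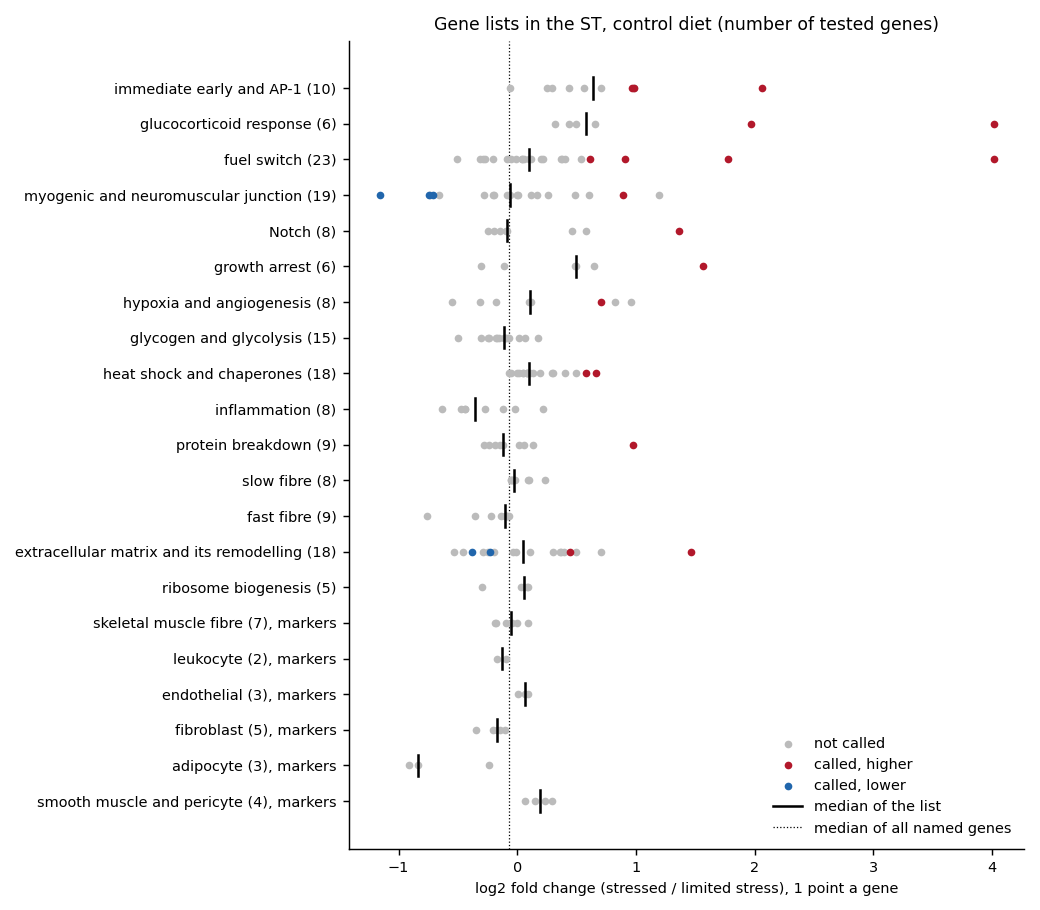
Log2 fold change (stressed over limited stress) of the tested genes of each list with 2 or more of them in the ST of control diet cows, 1 point per gene, with the median of the list as a bar and the median of all named genes as a dotted line. The immediate early, glucocorticoid and growth arrest lists have medians of 0.63, 0.58 and 0.49, and the slow and fast fibre lists have -0.03 and -0.10.

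The markers of the cell types a muscle sample can hold gave no call. The 7 tested fibre markers (ACTA1, CKM, DES, MB, MYH1, MYH7 and TNNT1) had summed levels of 8.33 to 8.80 in stressed and of 8.27 to 8.88 in limited stress cows. The 3 fat cell markers ADIPOQ, CFD and FABP4 had summed levels of -1.17 to 0.60 in stressed and of -0.92 to 1.13 in limited stress cows, a difference of -0.51 that was -1.80 within slide 3. The difference was -0.16 for 5 fibroblast markers (-0.83 within slide 3), -0.12 for the 2 leukocyte markers ITGB2 and PTPRC (-0.64 within slide 3), 0.04 for 3 endothelial markers (-0.27 within slide 3) and 0.33 for 4 smooth muscle markers (-0.39 within slide 3), so these 2 turned their sign. FABP4 itself had levels of -3.15 to 0.23 against -1.96 to 1.36 and differed by -0.86 ± 0.58 between the groups (SE, adjusted p = 0.46). Its highest limited stress level was that of cow308 (1.359, next -0.6431), 1 of the 2 limited stress cows of slide 3. None of the 3 blood markers on the array passed the filter. The part of fat and connective tissue in the called genes was not tested.

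Within slide 3, where both groups were hybridised side by side, the differences kept their sign. All 39 transcripts called higher were higher in its 3 stressed than in its 2 limited stress cows, with a median difference of 0.90, and all 69 called lower were lower, with a median of -0.47. These 5 cows are also part of the 16, so this is not a separate test. For 31 of the 39, all 3 stressed cows lay above both limited stress cows, as did 15.3% of all transcripts, and for 41 of the 69 they lay below, as did 19.9% of all transcripts. PDK4 differed by 4.59, CEBPD by 1.66, GADD45A by 1.54 and ETS2 by 0.63 within the slide. For SLC16A6 (1.19), SPOCK2 (0.36) and MYOG (-0.18) the 5 cows overlapped.

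With the slide as a fixed block, 10 transcripts stayed past the threshold (0.237%), 9 higher and 1 lower. The median log2 fold change of the 39 higher transcripts was 1.04, against 0.97 without the block. That of the 69 lower ones was -0.40, against -0.52, though some, such as SMAD9 and FST, lay further from 0. Of the 69, 68 kept their sign. Without the 5 arrays of slide 5, 13 transcripts were called, 7 higher and 6 lower, from 3 stressed against 8 limited stress cows. The 9 were the 2 sets each of PDK4, CEBPD and ETS2, with GADD45A, SLC16A6 and Target1414, and the lower one was A_73_117518, a probe without a name at -0.57. MYOG, MSTN and FST were not, and neither were ATF3, IFRD1 or PFKFB3.

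**Figure D4:**
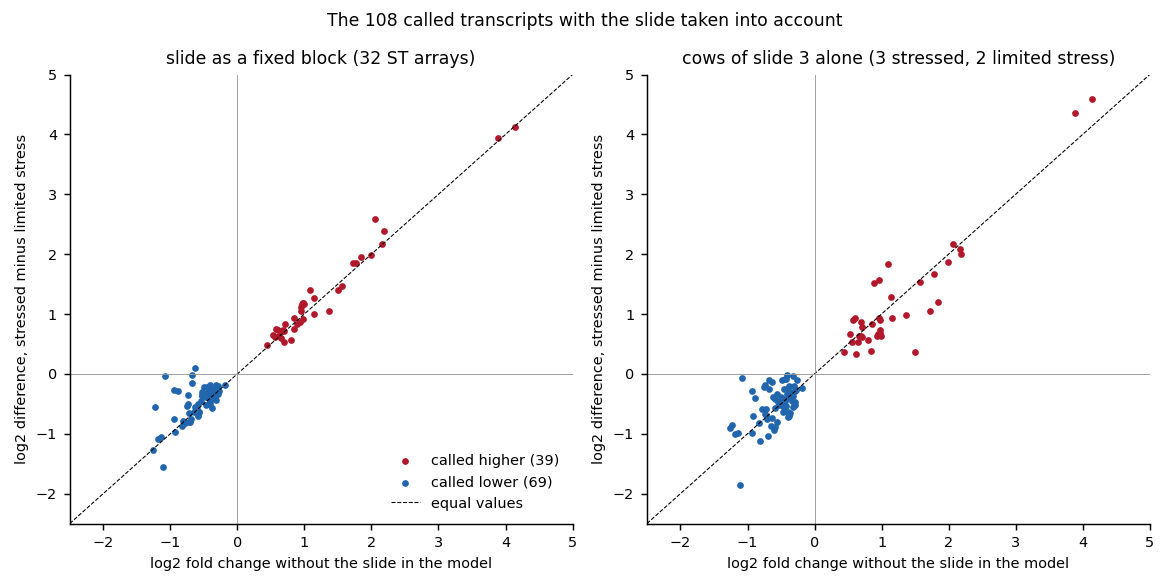
The 108 called transcripts with the slide taken into account, as the fit with the slide as a fixed block (left) and the difference of means within slide 3 (right), each against the log2 fold change without the slide. The 39 higher transcripts (red) lie near the line of equal values. The median of the 69 lower ones (blue) is -0.40 with the slide block and -0.52 without it, though some of them lie further from 0.

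The stress effect in the ST of the 16 EP diet cows, which are other animals, was read from the same fit. There 33 transcripts were called (0.781%), 24 higher (0.568%) and 9 lower (0.213%), in 17 of the 1959 named genes (0.868%). All 39 transcripts called higher in the control diet cows were also above 0 in the EP diet cows, as were 34.5% of all transcripts, and 17 of them were called there. Their median log2 fold change was 0.82. Of the 69 called lower, 61 lay below 0, as did 65.5% of all transcripts, but their median was -0.10 and only 4 were called. PDK4 was higher by 2.59 in the EP diet cows (adjusted p = 0.0012), SLC16A6 by 1.56 (adjusted p = 0.016), GADD45A by 0.83 (adjusted p = 0.095), ETS2 by 1.47 (adjusted p = 3.9e-05) and HYAL2 by 0.44 (adjusted p = 0.049). MYOG was lower there as well (-0.97, adjusted p = 0.00066). MSTN (-0.44, adjusted p = 0.91), FST (-0.05, adjusted p = 0.98) and GJB1 (-0.08, adjusted p = 0.98) were not called. CEBPD had 0.93 (adjusted p = 0.45) and GABARAPL1 0.32 (adjusted p = 0.92) without a call.

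The difference between the diets was tested as an interaction. No transcript was called for it in limma, and 488 of 10250 probes had an unadjusted p under 0.05. OMD had the smallest unadjusted p, 0.00019, with log2 fold changes of -0.94 on the control and 0.28 on the EP diet. For PDK4 the unadjusted p of the interaction was 0.024, for GADD45A 0.027 and for FST 0.037. A stress effect particular to the control diet was thus not shown for any of these genes.

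In the LT of the same 16 control diet cows, 48 of 4268 transcripts were called (1.12%), 34 higher (0.797%) and 14 lower (0.328%). The 39 transcripts called higher in the ST all lay above 0 in the LT, as did 36.4% of all transcripts, with a median of 1.14, and 23 of them were called. Of the 69 called lower in the ST, 66 lay below 0 in the LT, as did 63.6% of all transcripts, with a median of -0.27, and 2 were called, the 2 sets of MYOG. PDK4 had 3.60 in the LT, CEBPD 1.94, SLC16A6 1.69, GADD45A 1.50, ETS2 0.90 and MYOG -0.84, all called. The ST and LT arrays of a cow share the animal, so the muscles are not independent. Among the LT arrays, unlike those of the ST, 3 of the 4 slides held control diet cows of both groups, and the LT count was 60 with the slide as a block.

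The difference between the muscles gave no call, and 295 of 10168 probes had an unadjusted p below 0.05. The muscles of a cow were then paired, with the cow as replicate block, and 0 calls and 833 such probes of 10168 were found. OMD (unadjusted p = 0.0017), LOC532114 (0.0018), ATE1 (0.0019), ITGAV (0.0021) and THBS2 (0.0027) had the smallest p without the block. The integrin subunit ITGAV had -0.30 in the ST and 0.26 in the LT, and the matrix protein THBS2 -0.70 and 0.68. DNAJB1 was higher by 0.66 in the ST and had 0.06 in the LT (adjusted p = 0.94). The unadjusted p of the difference was 0.054 in the limma fit without the block, which leaves the pairing out. No transcript was called in either fit, so a difference between the muscles was not shown for DNAJB1.

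**Figure D5:**
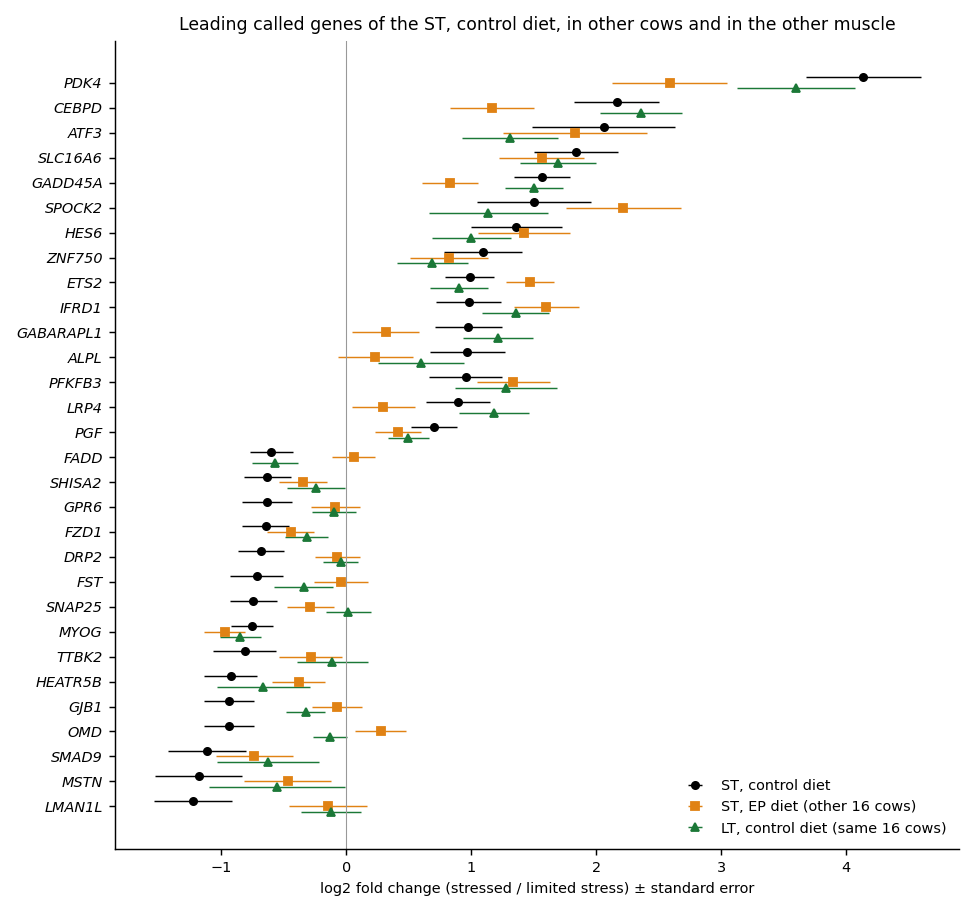
Log2 fold change ± standard error (stressed over limited stress) of the 15 highest and the 15 lowest called genes of the ST on the control diet (black), beside the ST of the EP diet cows (orange) and the LT of the same control diet cows (green). PDK4 is at 4.14, 2.59 and 3.60, MYOG lies below 0 in all 3, and the dim genes OMD, GJB1 and LMAN1L lie nearer 0 in the others.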

How the data were processed

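Total RNA of 32 ST samples, and of the LT of the same cows, had been labelled with Cy3 and hybridised to single-colour Agilent arrays of 13285 probes for 5449 transcripts. Per the file headers, the authors read the arrays with Feature Extraction 10.1.1.1, and the deposited intensities are processed signals, background-subtracted and detrended, without scaling between arrays. The submitters' processing notes name limma. The study scaled each array to the median of its control probes and each probe to its median over the arrays. That was not followed here. The 75th percentile of the 13414 spots that are no controls was used instead, because the 536 control features lay near background. Among the settings tried, scaling to the control features is nearest to the study's, and it gave 9 calls, all higher. The files and a table of the processed signals held the same values.

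The log2 of each signal over that percentile was fitted with limma 3.58.1 (statmod 1.5.0, R 4.3.3) to the 32 ST arrays with a mean for each of the 4 groups. A probe was tested where 6 or more of the 16 arrays had it well above background, which left 10250. Outlier spots were left out. The test was two-sided, with Benjamini-Hochberg adjustment over probes. The LT was fitted alike, and the interaction with muscle in all 64 arrays. The cow numbers pair the muscles because they are the same animals (correlation of the deviations over 0.1 in 31 of 32 pairs, lowest 0.0844). The study's model also held a factor named period, which no label assigns to the samples. The scripts were tested on simulated data.

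The named genes were the called transcripts with a name, up to 15 in each direction, the unnamed ones among the 5 largest in each direction, the called members of each list or else its 3 of smallest p, a fixed set of genes of the stress response, and 5 of each interaction. The lists and genes were chosen with earlier results of these data known. Names came from the files for 2517 transcripts, from a RefSeq table (ARS-UCD2.0) for 80, from descriptions for 4, and from at least 25 shared bases for 878 of 1945 custom sets, and 1970 transcripts had none. Probes were also searched for the qPCR primers of the study, by runs of 15 bases or more. Positions are those of the array design (Btau_3.1). The number of arrays limits the precision. Where nothing else is said, p-values measure the spread between cows. Some genes of the lists are counted but not reported here by name.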

Additional observations from a re-analysis of the deposited data

Results flagged for a closer look

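For the named transcripts, the highest or lowest cow of a group of 8 was compared with its nearest neighbour, and in 34 of 246 groups the gap, as a share of the range, passed the critical value of Dixon's test, where chance gives about 1 in 20. Stressed cow321 made 20 of these 34 gaps and limited stress cows made 6.

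Cow321 had the highest level among the stressed cows for GADD45A (2.684, next 1.28), ETS2 (1.282, next 0.629), GABARAPL1 (4.401, next 2.175) and SLC2A8 (0.1676, next -0.868). It was also highest for CDKN1A (4.452 in the named probe, 3.264 in the custom set Target330), for the custom set Target1086 of MYF6 (3.847) and for the ribosome biogenesis factor PES1 (-0.3252). It had the lowest level for Target1414 (-0.5804, next 0.0986), MSTN (-6.248 and -6.492 in its 2 transcripts), MYOD1 (-1.373 in the named probe, next 1.529, and -3.672 in the custom set), the custom set of MYOG (-2.091), the slow myosin light chain MYL3 (2.58), PPP1R3C (1.201 and 0.4563 in its custom set) and the ribosome biogenesis factor IMP3 (-2.188, -2.48 and -2.534 in its 3 transcripts). Myogenic factors thus lay at both ends in this cow, with MYOD1 and MYOG at the bottom and MYF6 at the top.

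Other stressed cows stood out in fewer genes. Cow260 had the highest levels of the smooth muscle genes CNN1 (1.915) and TAGLN (0.3701, and -0.3897 in its custom set) and of GEM (-2.422). Cow265 was highest for the leukocyte integrin ITGB2 (-2.459, and -3.57 in its custom set). Cow297 was lowest for the carnitine acetyltransferase CRAT (2.46), and cow301 for the matrix gene THBS2 (-6.664).

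Among limited stress cows, cow308 had the highest levels of the fat cell marker FABP4 (1.359, and 0.0313 in its custom set), cow320 the highest of THBS2 (-2.699) and the lowest of the ACTA1 set Homolog36 (3.177), cow255 the highest of ACTL11 (-6.762), and cow302 the lowest of the custom set of MYOG (-0.8898).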

How the results depend on the processing

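The count of 108 called transcripts in the ST of control diet cows depended on the processing more than the direction of its members did. Scaling to the control features gave 9, and it was 43 without scaling (38 higher, 5 lower), 41 with quantile normalization, 40 with normexp and quantile normalization (34 higher, 6 lower), 60 without the filter on dim probes (30 in each direction) and 24 at an adjusted p under 0.05. It was 102 with probes well above background on all 16 arrays (39 higher, 63 lower) and 149 with 1 value per transcript (46 higher, 103 lower). It was 39 in the 16 arrays alone, 10 with the slide and 13 with the scan day as a fixed block, 71 with the slide as a random block and 13 without slide 5, the last 2 chosen after seeing the data. Leaving out 1 cow gave 35 to 163. In the fit of all 64 arrays with the cow as a replicate block, the muscles of a cow being paired, it was 88 (41 higher, 47 lower). In the EP diet cows (33 called) and in the LT (48 called) scaling to the control features gave 19 and 16, and the replicate block left the interaction of stress and muscle at 0. The cause of these shifts was not tested, beyond the fewer cows or arrays in some fits. Of the 123 named transcripts, 77 had no call. None of the called ones among the 123 reversed its direction under any of these settings, and 492 of their values fell below the threshold. This does not cover the other called transcripts. Of all 69 called lower, 68 kept their sign with the slide as a fixed block. For the 77 named transcripts without a call, 133 of 2460 values took the other sign. Levels near background limit what OMD, LMAN1L and the other dim transcripts can show.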
